A study of Mus musculus with 8 samples.

Results

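The angiopoietins and their relatives were examined as 10 genes, chosen by name, out of the 54532 genes in a table of expression values of the mouse cornea. They are the 3 angiopoietins Angpt1, Angpt2 and Angpt4, the 2 receptors Tek and Tie1, and the 5 angiopoietin-like genes Angptl1, Angptl2, Angptl4, Angptl6 and Angptl7. RNA was sequenced from 4 corneas of BALB/cN mice, labelled Balb/c, and 4 corneas of C57BL/6N mice, inbred albino and black strains. All corneas were naive, that is untreated, and according to the methods of the study all mice were male, while no separate age was given for the mice sequenced. The study compared the strains because their corneas differ in lymphatic vessels at the limbus, the border of the cornea. The labels do not say whether each cornea came from its own mouse, so p-values measure only the spread between these samples, which may be in part technical.

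Angiopoietins are secreted ligands of the tyrosine kinase receptor Tie2, which the gene Tek encodes and which sits mainly on the endothelium of blood and lymphatic vessels. Angpt1 activates the receptor and steadies vessels, and Angpt2 can act as agonist or antagonist depending on the vessel. Tie1 is a related receptor that modulates Tie2. Angiopoietin-like proteins share the domain structure of the ligands but do not bind Tie receptors, and several act on lipases or on extracellular matrix. The healthy cornea itself holds no vessels, which end at the limbus.

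The values were regularized log (rlog) values, which are on a log2 scale, already normalized for library size, and shrunk more strongly towards the mean of a gene where fewer reads were counted. A difference in rlog values is therefore smaller than the underlying fold change, most of all for genes with few reads. The depth of each library is unknown from these values, which hold no read counts. Strains were compared with limma over the 25402 genes whose mean rlog value was at least 0, and a difference is always BALB/cN minus C57BL/6N. Of the 10 members, 9 passed this minimum, and Angpt4 was not tested. A gene was called where its p-value after Benjamini-Hochberg adjustment over all genes tested was 0.01 or less.

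The corneas differed in the levels of several lists of cell type markers, which are given here because the members are set beside them below. The mean rlog value of 9 stromal keratocyte markers was 11.04 in BALB/cN replicate 2, 10.68 in C57BL/6N replicate 3 and 10.66 in C57BL/6N replicate 4, and between 12.22 and 12.97 in the other 5 corneas. The mean of 5 pigment cell markers was 10.42 and 11.34 in BALB/cN replicates 1 and 4, and between 6.22 and 8.66 in the other 6, with the lens list highest in the same pair (8.66 and 7.91, against 5.74 to 6.48). The mean of the corneal epithelium markers lay between 16.27 and 16.57 in all 8 corneas. Its highest values, 16.49, 16.51 and 16.57, were in BALB/cN replicate 2 and C57BL/6N replicates 3 and 4, which were lowest in the stromal list. Of the 75 tested markers in these lists and 9 others, 0 were called between the strains by limma, against 5.74% of all genes tested. An unadjusted p-value under 0.05 was found for 5 of the 75, and for 6009 of the 25402 genes tested. Some markers varied widely within a strain, such as the keratocyte marker Kera with an SD of 2.73 in C57BL/6N. The lack of calls therefore does not show that the strains were alike in cell types. In samples of whole tissue, fewer cells of a type and less RNA per cell cannot be told apart.

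Upstream sequence was found for 7 of the 10 members in a RefSeq table (GRCm38.p6), and no entry was found for Angptl4, Angpt1 and Angpt2. The 250 bases before the start are shown for 3 members whose upstream window lies outside the annotated gene. Angptl7 and Angptl2 are shown because they moved together across the corneas, and Tek because it followed another pattern. Angptl7 is read from the minus strand of chr4:148500463-148500712, Angptl2 from the plus strand of chr2:33215711-33215960 and Tek from the plus strand of chr4:94739039-94739288, and capitals mark the letters of a GC box.
Angptl7 upstream: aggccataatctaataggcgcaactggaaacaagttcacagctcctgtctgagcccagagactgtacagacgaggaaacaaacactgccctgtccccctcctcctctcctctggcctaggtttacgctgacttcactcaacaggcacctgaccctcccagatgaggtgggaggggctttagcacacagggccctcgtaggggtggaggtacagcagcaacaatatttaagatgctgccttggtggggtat
Angptl2 upstream: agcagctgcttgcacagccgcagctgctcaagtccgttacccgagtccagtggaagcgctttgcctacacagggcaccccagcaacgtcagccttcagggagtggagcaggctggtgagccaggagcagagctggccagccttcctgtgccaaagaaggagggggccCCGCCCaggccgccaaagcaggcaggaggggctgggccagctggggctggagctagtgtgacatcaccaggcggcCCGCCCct
Tek upstream: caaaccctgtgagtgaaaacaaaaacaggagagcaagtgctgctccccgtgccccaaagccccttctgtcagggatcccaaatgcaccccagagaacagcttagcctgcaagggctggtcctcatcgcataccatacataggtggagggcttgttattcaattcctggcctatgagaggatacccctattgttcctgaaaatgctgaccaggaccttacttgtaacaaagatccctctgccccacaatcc

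Both strands of these windows were searched for the letters of 5 motifs, and the same was done for 32851 promoter windows of equal length. The TATA box was searched as TATAAA, which 12.4% of all windows held. The next motif was CCAAT, the box of that name, held by 33.8%. The GC box was searched as GGGCGG and was held by 32.7%. The core of a hypoxia response element, ACGTG, was in 16.6% of the windows. The AP-1 site was searched as TGACTCA, found in 4.5%. Angptl2 had 2 GC boxes, both on the minus strand, beginning 83 and 8 bases before the start. None of the 5 motifs was found in the windows of Angptl7, Tek, Tie1, Angptl1 or Angptl6. The windows of Tie1 and Angptl6 overlapped the annotated gene, and that of Angptl1 lay wholly inside it. Angpt4 had a TATA box beginning 30 bases and a GC box beginning 187 bases before its start. The share of G and C was 66.8% upstream of Angptl2, 54.4% upstream of Angptl7 and 51.2% upstream of Tek, with a median of 52.4% over all windows. A match is a description of letters and not a binding site.

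To compare members with each other, the rlog value was set against the length of the union of exons of each gene, as rlog minus log2 of the length in kb. On this scale the family spanned a wide range, with Angptl7 far above the rest. Angptl7, a secreted protein known from the corneal stroma and the trabecular meshwork, stood at 12.23 ± 1.17 (SD, n = 8 corneas), higher than 99.0% of the 16006 protein-coding genes tested. Next came Angpt2 with 6.63 ± 0.75, Angptl2 with 6.51 ± 0.96, Angptl4 with 6.25 ± 0.40 and Angptl1 with 6.04 ± 0.98 (SD, n = 8). These 4 genes lay in the middle of the distribution, above 40.0% to 47.5% of the protein-coding genes tested. Angptl6 with 3.99 ± 0.16 and the receptor Tie1 with 3.70 ± 0.71 (SD, n = 8) followed. The agonist Angpt1 with 2.16 ± 0.39 and its receptor Tek with 1.90 ± 0.60 (SD, n = 8) were lowest, above 15.3% and 14.0% of protein-coding genes.

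**Figure D1:**
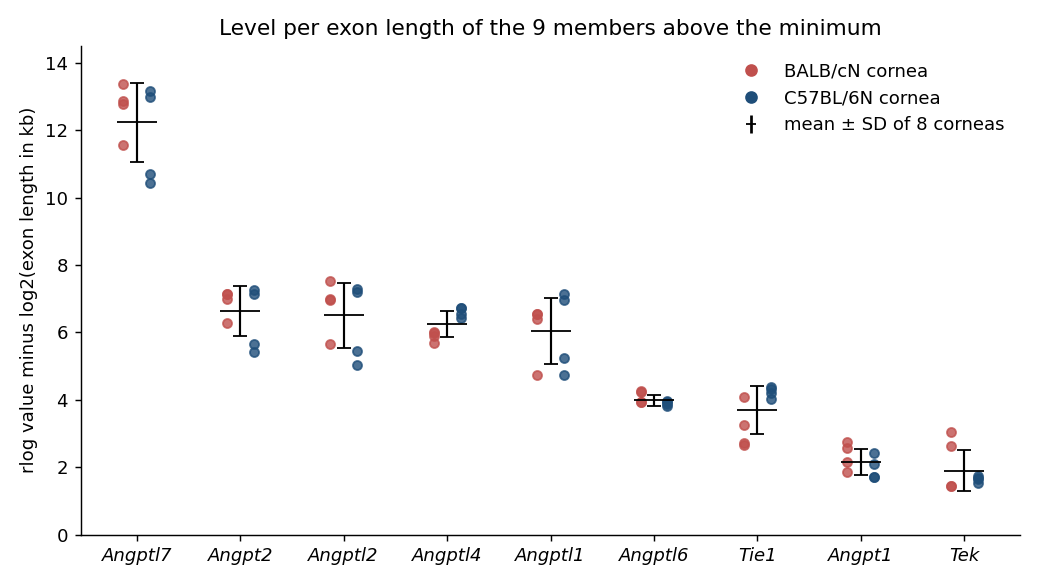
Level of 9 members per exon length (vertical axis: rlog value minus log2 of the exon length in kb, a log2 scale), ordered from left to right. Points are single corneas of BALB/cN and C57BL/6N, and bars are the mean ± SD of 8 corneas. Angptl7 stands at 12.23, and the next 4 genes lie between 6.04 and 6.63.

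Neighbours in this order were compared with an exact two-sided sign-flip permutation test over the 8 corneas, whose smallest p is 0.00781, adjusted over 8 pairs of neighbours. The order came from the same values, so the pairs and their direction were not chosen independently of the test. Angptl7 was above Angpt2 by 5.61 ± 0.46 (SD, n = 8), in 8 of 8 corneas, with an adjusted p of 0.0208 in the permutation test. Angptl1 was above Angptl6 by 2.04 ± 0.93 and Tie1 above Angpt1 by 1.54 ± 0.80, each in 8 of 8 corneas and each with an adjusted p of 0.0208 in the same permutation test. The other 5 neighbouring pairs did not differ beyond their spread, with permutation p-values between 0.188 and 0.578 after adjustment. With the length of the longest transcript in place of the union of exons, Angptl2 stood at 7.34, above Angpt2 with 6.68.

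Among the ligands, Angpt2 was the member with the higher level in both strains. Angpt2 (ENSMUSG00000031465) is found at chr8:18690263-18741562 on the minus strand (GRCm38, as for all positions here). Its rlog values were 9.01, 8.16, 9.03 and 8.89 in BALB/cN replicates 1 to 4, and 9.02, 9.15, 7.53 and 7.29 in C57BL/6N replicates 1 to 4. The 3 low values were those of the 3 corneas with the lowest stromal list, and the groups overlapped. The difference was 0.52 with a 95% interval of -0.43 to 1.48 (adjusted p = 0.505, limma).

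Angpt1 (ENSMUSG00000022309), at chr15:42424723-42676977 on the minus strand, had rlog values of 4.96, 4.24, 4.54 and 5.12 in BALB/cN and 4.79, 4.49, 4.10 and 4.09 in C57BL/6N. The groups overlapped, and the lowest 3 values again belonged to BALB/cN replicate 2 and C57BL/6N replicates 3 and 4. The difference was 0.35 with a 95% interval of -0.14 to 0.84 (adjusted p = 0.374, limma). Angpt4 (ENSMUSG00000027460), at chr2:151911210-151945337 on the plus strand and the third ligand of Tie2, was at -2.10 in 7 corneas and -2.09 in 1. Such a value with almost no spread is the lower end of the scale for a gene with hardly any reads.

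The receptors differed from each other. Tie1 (ENSMUSG00000033191), at chr4:118471191-118490061 on the minus strand, had rlog values of 5.56, 5.02, 4.96 and 6.37 in BALB/cN and 6.67, 6.62, 6.49 and 6.32 in C57BL/6N. The C57BL/6N corneas were close together, with an SD of 0.16, while the BALB/cN corneas spread with an SD of 0.66. The groups overlapped in a single cornea, BALB/cN replicate 4, which exceeded C57BL/6N replicate 4 only slightly. The difference was -1.05 with a 95% interval of -1.67 to -0.42, and its adjusted p of 0.0404 (limma) missed the threshold for a call. The exact two-sided permutation test gave p = 0.0571, where 0.0286 is the smallest that 4 corneas against 4 allow.

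Tie1 passed the threshold in several other fits and missed it in others. It was not called in a robust fit (adjusted p = 0.0712, limma), without a variance trend (0.0572) or without a filter on the mean (0.0554). After recalibration to an empirical null, the adjusted p of limma was 0.844. Without BALB/cN replicate 4 the difference was -1.35 (adjusted p = 0.00145, limma), and in the other 7 fits with 1 cornea left out it was not called. With the stromal list of each cornea as a covariate it was -1.16 (adjusted p = 0.00559), and with the pigment list, a fit chosen after seeing the data, -1.22 (adjusted p = 0.000936). BALB/cN replicates 1 and 4 had the highest means of the lens, pigment and blood endothelium lists. Without this pair, the remaining BALB/cN values of 5.02 and 4.96 lay below every C57BL/6N value, and the difference was -1.54 (adjusted p = 0.00127, limma). That fit was also chosen after seeing the data. Without the 3 corneas of the lowest stromal list it was -1.02 (adjusted p = 0.172).

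Tek (ENSMUSG00000006386), which encodes Tie2 and is found at chr4:94739289-94874976 on the plus strand, had rlog values of 4.87, 3.69, 3.69 and 5.28 in BALB/cN and 3.93, 3.90, 3.98 and 3.77 in C57BL/6N. BALB/cN replicates 1 and 4 were above all C57BL/6N corneas and replicates 2 and 3 below them. The difference was 0.49 with a 95% interval of -0.26 to 1.24 (adjusted p = 0.419, limma), and without BALB/cN replicates 1 and 4 it turned to -0.20 (adjusted p = 0.289).

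The mean of the blood vessel markers was high in the same BALB/cN corneas as both receptors, but not every marker was. The mean of 12 blood endothelium markers was 6.36 and 6.81 in BALB/cN replicates 1 and 4, 5.36 and 5.59 in replicates 2 and 3, and between 5.18 and 5.82 in C57BL/6N. Cdh5, the cadherin of endothelial junctions, followed the same order, with 6.49 and 7.48 in BALB/cN replicates 1 and 4 against 4.52 and 4.72 in the others. The most highly expressed markers did not follow it. Erg, an endothelial transcription factor, had 11.35, 10.39, 11.41 and 11.32 in BALB/cN replicates 1 to 4, and the receptor gene Kdr had 9.10 in replicate 2 and 9.94 to 10.23 in the others. Within BALB/cN, both were thus low in replicate 2 alone, whereas both Tie receptors were low in replicates 2 and 3. In C57BL/6N replicates 1 to 4, Erg had 11.39, 11.60, 9.80 and 9.82, and Kdr had 10.22, 10.33, 8.06 and 8.23. Over all 8 corneas, Erg and Kdr were lowest in the 3 with the lowest stromal list. Summed over the list, the level ranged from 11.35 to 12.39 in BALB/cN and from 10.76 to 12.43 in C57BL/6N. The median difference of the 12 markers was 0.47, where that of Tie1 was -1.05. With the blood endothelium list as a covariate, a fit chosen after seeing the data, Tie1 differed by -1.48 (adjusted p = 0.000133, limma) and Tek by -0.03 (adjusted p = 0.952). The part of these markers in either result was not tested further.

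Of the 6 markers fixed for lymphatic endothelium, 3 were at or near the lower end of the scale and 3 were above it. Lyve1 had rlog values between 1.27 and 1.41 in all 8 corneas, Ccl21a was listed at 0 in all, and Mmrn1 was at -2.10 to -2.09. Prox1 had values between 4.42 and 5.25, and Reln between 4.86 and 8.93, with its highest 2 values in BALB/cN replicates 4 and 1. Flt4, the receptor of lymphatic growth factors, had values of 5.02, 4.58, 4.35 and 5.04 in BALB/cN and 4.10, 4.25, 3.99 and 3.98 in C57BL/6N. Its groups did not overlap, as was found for 18.3% of all genes tested. The difference of Flt4, 0.67 (adjusted p = 0.023, limma), missed the threshold for a call. According to the study, corneal epithelial cells express this receptor too, and the cell source of the Flt4 values was not tested. Of the 4 tested markers of the list 0 were called, against 5.74% of all genes tested. The mean of the markers not at 0 was 3.32 and 3.56 in BALB/cN replicates 1 and 4 and between 2.54 and 2.86 in the other 6 corneas.

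Of the 13 genes fixed as Tie receptor signalling, all were tested, 0 were called higher and 1 was called lower in BALB/cN, where 5.74% of all genes tested were called in either direction. The median difference was -0.01 against 0.008 over all genes tested. The called gene was Pik3r1, the regulatory subunit of phosphoinositide 3-kinase, with 11.95 ± 0.10 in BALB/cN and 12.32 ± 0.10 in C57BL/6N (SD, n = 4). Its difference of -0.37 (adjusted p = 0.00655, limma) stayed called in 2 of 8 fits that left out 1 cornea, namely without BALB/cN replicate 1 and without C57BL/6N replicate 3, and had an adjusted p of up to 0.0231 in the others. The 3 further genes with the highest mean rlog value of the list were not called: the transcription factor Foxo1 at -0.05, the integrin subunit Itgb1 at 0.23, and Svep1, a matrix protein that acts with Tie1, at 0.17.

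Of the angiopoietin-like genes, Angptl4 was the only member called, 1 of the 9 tested, against the same background of 5.74%. Angptl4 (ENSMUSG00000002289), a secreted inhibitor of lipoprotein lipase that also acts on vessel integrity, is found at chr17:33773750-33781830 on the minus strand. Its rlog values were 7.80, 7.72, 7.52 and 7.85 in BALB/cN and 8.55, 8.54, 8.24 and 8.36 in C57BL/6N. All 4 BALB/cN corneas were below all 4 C57BL/6N corneas, a separation that 18.3% of all genes tested showed in one direction or the other, and Angptl4 was the single tested member with it. The means were 7.72 ± 0.14 and 8.42 ± 0.15 (SD, n = 4).

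The difference of Angptl4 was -0.70 with a standard error of 0.102 and a 95% interval of -0.93 to -0.47 (adjusted p = 0.0018, limma). The exact two-sided permutation test gave p = 0.0286, the smallest possible. In 8 fits that each left out 1 cornea, the difference stayed between -0.76 and -0.63 and was called in all 8. It was -0.75 (adjusted p = 0.000143) with the stromal list as a covariate, a fit in which 9.52% of all genes tested were called and in which Tie1 and Angptl4 were the called members. Without BALB/cN replicates 1 and 4 it was -0.80 with an adjusted p of 0.0162 (limma), no longer a call.

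Angptl4 varied less within strains than most other members. Its SD within strains, 0.147, was larger than that of 71.7% of the genes tested, whereas those of Angptl7 (1.16), Angptl1 (1.06), Angptl2 (0.995) and Angpt2 (0.748) exceeded 98.6% to 99.6% of them. Markers of adipocytes, where Angptl4 is abundant, were at or near the lower end of the scale, with Adipoq and Cidec listed at 0 in all corneas and Plin1 between 0 and 0.08.

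**Figure D2:**
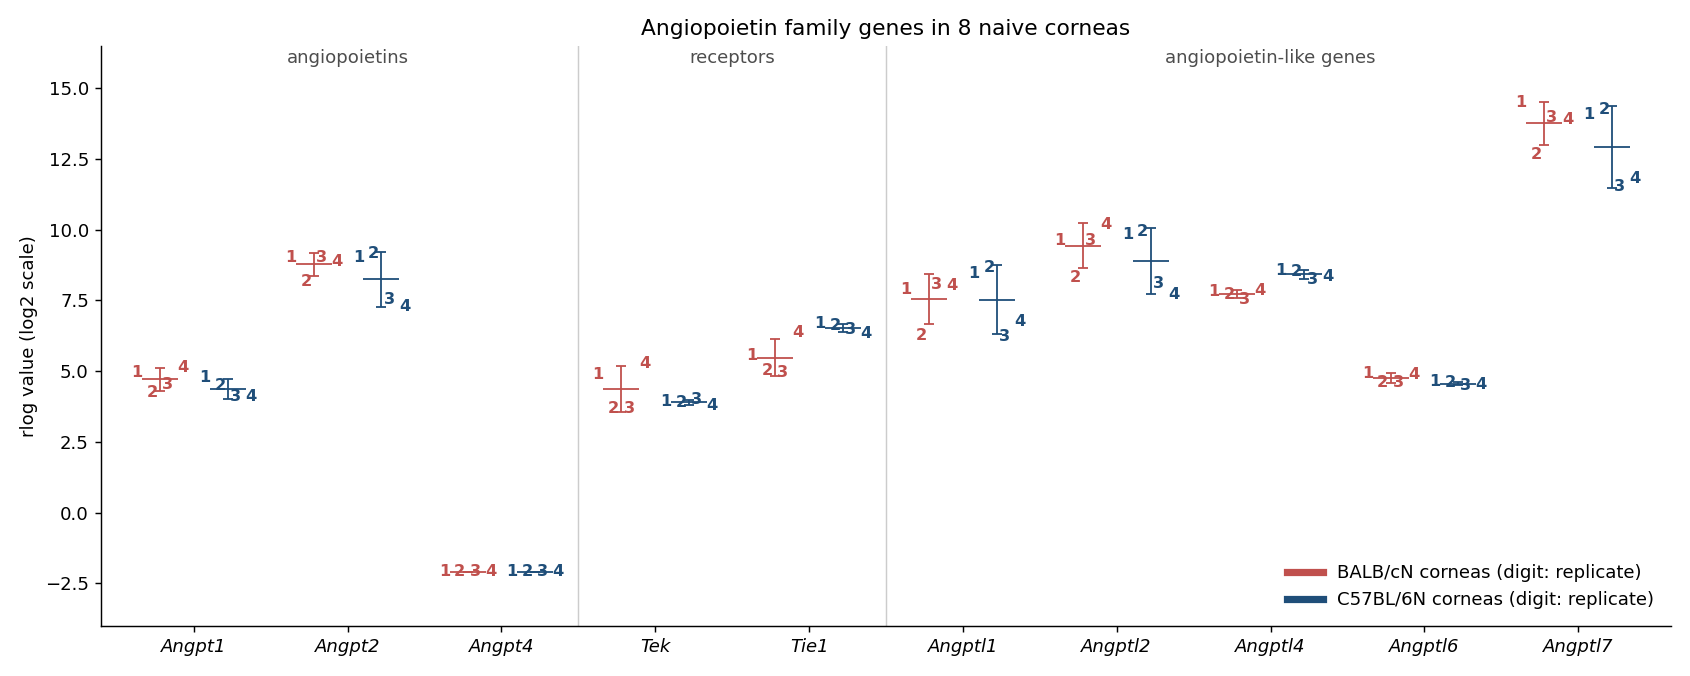
The rlog value (vertical axis, log2 scale) of the 10 members in each cornea. Digits give the replicate number in BALB/cN (red) and C57BL/6N (blue), placed at the value, and the lines are the mean ± SD of 4 corneas. The groups of Angptl4 are separated, those of Tie1 overlap in BALB/cN replicate 4, and replicates 2 of BALB/cN and 3 and 4 of C57BL/6N are low for Angptl1, Angptl2, Angptl7 and Angpt2.

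The genes around Angptl4 on chromosome 17 were compared in the same way. None of the 3 nearest tested protein-coding genes on either side was called. On the lower side, Rab11b, 13.2 kb away, differed by -0.06, March2 by -0.14 and Hnrnpm by -0.17. On the higher side, Kank3, 28.7 kb away, differed by 0.20, Rps28 by -0.28 and Ndufa7 by 0.26, with adjusted p-values from limma between 0.0989 and 0.442 over the 6 genes. The neighbours of Tie1 on chromosome 4 were looked at after their values were seen. Of its 6 neighbours, Tmem125, 50.9 kb away on the higher side, was called, with 8.52 ± 0.11 in BALB/cN and 9.35 ± 0.03 in C57BL/6N (SD, n = 4) and a difference of -0.83 (adjusted p = 6.06e-05, limma). Med8, on the lower side, differed by -0.36 (adjusted p = 0.0106), and the other 4 had adjusted p-values between 0.163 and 0.899.

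Angptl7 (ENSMUSG00000028989), at chr4:148495183-148500460 on the minus strand, was the most abundant member in every cornea. Its rlog values were 14.49, 12.66, 13.98 and 13.90 in BALB/cN and 14.09, 14.26, 11.53 and 11.82 in C57BL/6N. It was low in BALB/cN replicate 2 and in C57BL/6N replicates 3 and 4, and the groups overlapped. The difference was 0.84 with a wide 95% interval of -0.64 to 2.31 (adjusted p = 0.49, limma).

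Angptl2 (ENSMUSG00000004105), a secreted protein tied to inflammation and matrix remodelling, is found at chr2:33216069-33247717 on the plus strand. Its rlog values were 9.61, 8.31, 9.63 and 10.19 in BALB/cN and 9.84, 9.94, 8.11 and 7.70 in C57BL/6N. The same 3 corneas were low, and the difference was 0.54 with a 95% interval of -0.73 to 1.80 (adjusted p = 0.611, limma).

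Angptl1 (ENSMUSG00000033544), described as an inhibitor of angiogenesis, is found at chr1:156838562-156861078 on the plus strand. Its rlog values were 7.90, 6.25, 8.06 and 8.04 in BALB/cN and 8.46, 8.66, 6.24 and 6.74 in C57BL/6N. Here too BALB/cN replicate 2 and C57BL/6N replicates 3 and 4 were low, and in the other 5 corneas the 2 C57BL/6N values lay above the 3 BALB/cN values. The difference was 0.04 with a 95% interval of -1.31 to 1.38 (adjusted p = 0.981, limma). Its direction turned in several fits, to -0.40 (adjusted p = 0.177) with the stromal list as a covariate and to -0.56 (adjusted p = 0.0192) without the 3 corneas of the lowest stromal list, a fit chosen after seeing the data.

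Angptl6 (ENSMUSG00000038742), a secreted factor known from energy metabolism, is found at chr9:20873808-20879727 on the minus strand. Its rlog values were 4.92, 4.61, 4.61 and 4.88 in BALB/cN and 4.62, 4.60, 4.49 and 4.54 in C57BL/6N. The groups overlapped, the highest 2 values being those of BALB/cN replicates 1 and 4, and the difference was 0.19 with a 95% interval of -0.02 to 0.41 (adjusted p = 0.268, limma).

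The lowest 3 values of Angptl7, Angptl1, Angptl2, Angpt2 and Angpt1 were in the 3 corneas with the lowest mean of the stromal keratocyte list. Over the 8 corneas the rlog value of Angptl7 spanned 2.96, that of Angptl2 2.49, that of Angptl1 2.42, that of Angpt2 1.86 and that of Angpt1 1.03. The keratan sulfate proteoglycans Kera and Lum spanned 5.04 and 4.56, decorin (Dcn) 4.01 and the collagen chain Col1a1 2.09, with their lowest 3 values in the same corneas, as had Col1a2 and Col5a1. The other 3 of the 9 markers did not show this order. Ptgds was lowest in BALB/cN replicate 3, at 6.42 against 9.49 in C57BL/6N replicate 3, and Thy1 was also lowest there, at 2.95. Aldh1a1 was at 11.56 and 11.54 in BALB/cN replicates 3 and 4 and at 11.53 in C57BL/6N replicates 3 and 4. Summed over the list, the stromal level ranged from 16.81 to 18.13 in BALB/cN and from 16.11 to 18.46 in C57BL/6N. With the stromal list as a covariate the standard error of Angptl7 fell from 0.656 to 0.17 and that of Angptl2 from 0.563 to 0.128. The differences were then 0.36 for Angptl7 (95% interval -0.02 to 0.73) and 0.12 for Angptl2 (95% interval -0.16 to 0.41), and neither was called. Other lists were lowest in the same 3 corneas. The mean of the blood endothelium list was 5.36, 5.36 and 5.18 there and between 5.59 and 6.81 in the other 5. For skeletal muscle it was 3.36, 3.36 and 3.37 against 3.55 to 3.72. The mean of the corneal endothelium list was 12.41, 12.26 and 12.06 there and between 12.87 and 13.09 in the other 5. That of trabecular meshwork and sclera was 3.55, 3.40 and 3.33 against 4.0 to 4.38, and that of macrophages 6.44, 6.24 and 6.18 against 6.96 to 7.25. The part of any of these cell types in the results was not tested.

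**Figure D3:**
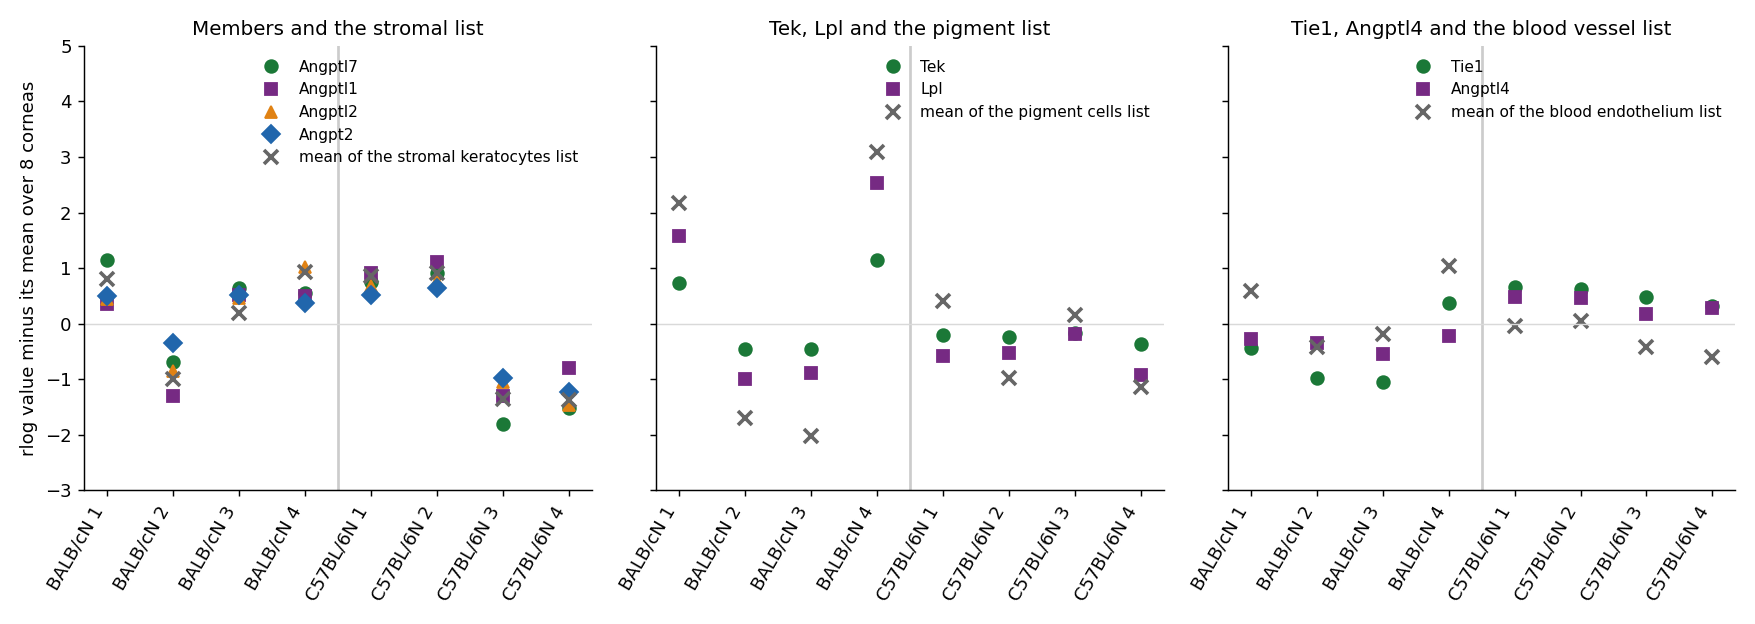
Members and marker lists in the 8 corneas (horizontal axis), as the rlog value minus its mean over the corneas (vertical axis, log2 scale). Coloured symbols are single genes and crosses the mean of a marker list. On the left, 4 members and the stromal list are low in BALB/cN replicate 2 and C57BL/6N replicates 3 and 4. In the middle, Tek, Lpl and the pigment list are high in BALB/cN replicates 1 and 4, and on the right Tie1 and Angptl4 are higher in C57BL/6N, apart from Tie1 in BALB/cN replicate 4.

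Over the 9 members tested, 7 differences were positive and 2 negative, with a median of 0.35 against 0.008 over all genes tested. These differences are not independent, since Angptl7, Angptl2, Angpt2, Angptl1 and Angpt1 had their lowest values in the same 3 corneas. Without these corneas, a fit chosen after seeing the data, their differences were -0.05, -0.08, -0.11, -0.56 and, for Angpt1, 0.24. With a looser limit of 0.05 on the adjusted p-value, which 11.2% of all genes tested met, 2 members passed, Angptl4 and Tie1, both lower in BALB/cN. Tie1 missed this looser limit in the robust fit (adjusted p = 0.0712, limma) and without a variance trend (0.0572).

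**Figure D4:**
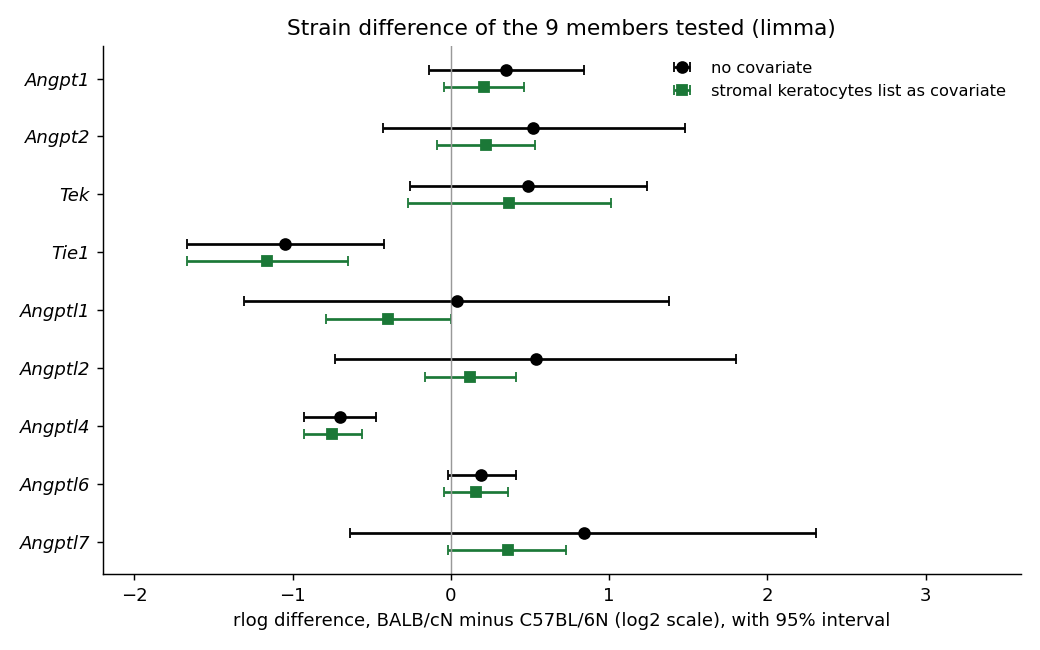
Differences in rlog value between the strains (horizontal axis, BALB/cN minus C57BL/6N, log2 scale) of 9 members from limma, with 95% intervals. Circles are fits without a covariate and squares fits with the stromal list as a covariate. The interval of Angptl7 narrows from -0.64 to 2.31 to -0.02 to 0.73, and those of Angptl4 and Tie1 lie below 0 in both fits.

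The lipases and binding partners of angiopoietin-like proteins were a list of 12 genes, of which 9 were tested. By limma 0 of them were called, against the background of 5.74% of all genes tested. Their median difference was -0.08, and 3 had an unadjusted p-value under 0.05, as had 6009 of the 25402 genes tested. Gpihbp1, which anchors lipoprotein lipase to capillary endothelium, was listed at 0 in all corneas, and Angptl8, which takes part in the control of the same lipase in the circulation, was below the minimum. The 4 genes with the highest mean rlog value were the syndecan Sdc1, differing by 0.06, the integrin subunit Itgav by -0.18, the lipase folding partner Sel1l by -0.20 and the lipase maturation factor Lmf1 by -0.09. Lpl, the lipase that Angptl4 inhibits, had rlog values of 6.86, 4.29, 4.40 and 7.82 in BALB/cN and 4.70, 4.75, 5.10 and 4.36 in C57BL/6N. It was high in the same 2 corneas as Tek, and its difference of 1.11 had a standard error of 0.719 (adjusted p = 0.394, limma).

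Of 10 known regulators of Angptl4, all tested, 1 was called higher and 0 lower against the background of 5.74%, with a median difference of 0.03. The called gene was the growth factor Tgfb1, with 11.64 ± 0.11 in BALB/cN and 11.02 ± 0.15 in C57BL/6N (SD, n = 4), a difference of 0.62 (adjusted p = 0.00126, limma). The 4 regulators with the highest mean rlog value were not called: the hypoxia-inducible factors Epas1 at -0.10 and Hif1a at 0.09, the nuclear receptor Rxra at -0.22 and the signal transducer Smad3 at 0.22. Pparg, the nuclear receptor of adipocytes, had rlog values between 1.18 and 1.36.

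Of 12 target genes of the PPAR nuclear receptors, a class to which Angptl4 belongs, all tested, 0 were called higher and 1 lower against the same background, with a median difference of -0.07. The called gene was Plin2, a coat protein of lipid droplets, with 8.46, 8.56, 8.58 and 8.74 in BALB/cN and 9.49, 9.66, 9.53 and 9.45 in C57BL/6N. The groups did not overlap, and the difference was -0.94 (adjusted p = 5.18e-05, limma). Cpt1a, Acadm and Acadl, enzymes of fatty acid oxidation and among the genes of this list with the highest mean rlog value, were not called, with differences of -0.12, -0.22 and -0.04.

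Of 12 target genes of hypoxia, all tested, 2 were called higher and 1 lower, where 5.74% of all genes tested were called, with a median difference of 0.21. An unadjusted p-value under 0.05 was found for 8 of the 12, and for 6009 of the 25402 genes tested. Vegfa, the main growth factor of blood vessels, was higher in BALB/cN by 0.87 (adjusted p = 0.00291), and Ankrd37 by 0.86 (adjusted p = 0.00107). Egln3, an oxygen-sensing prolyl hydroxylase, differed by -0.54 (adjusted p = 0.00152, limma in all 3). The others with the highest mean rlog value were Ndrg1 at -0.22, the glucose transporter Slc2a1 at 0.37 and the demethylase Kdm3a at -0.13, none of them called. Vegfa lost its call without BALB/cN replicate 3 or 4 or C57BL/6N replicate 3, with an adjusted p of up to 0.012. Of 7 glucocorticoid target genes, all tested, 0 were called by limma and 3 had an unadjusted p-value under 0.05, with a median difference of 0.12. The 4 with the highest mean rlog value were Sgk1 at 0.12, Per1 at 0.78, Tsc22d3 at 0.06 and Dusp1 at 0.36.

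The genes whose values over the 8 corneas were most like each member were sought among 13943 well expressed protein-coding genes, with Pearson r over the 8 corneas as a description only. The points share the libraries, in which the marker lists also differed. Lpl was the gene most like Tek (r = 0.997), followed by Trim63 and Rragd. Angptl7 was most like Layn (r = 0.996), the receptor gene Kdr and the integrin subunit Itga4. Angpt2 was most like Colgalt2 (r = 0.996), the collagen crosslinking enzyme Lox and Clstn2. Angptl2 was most like the microfibril gene Mfap2 (r = 0.997), Tgfb3 and Cpne2, and Angptl1 was most like the macrophage gene Adgre1 (r = 0.992), Tenm2 and the basement membrane gene Nid1.

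Angptl4 was most like Gopc (r = 0.991), Amdhd2, which was itself called lower in BALB/cN with a difference of -0.57 (adjusted p = 0.00122, limma), and the dystroglycan gene Dag1. Tie1 was most like Sun3 (r = 0.976), Epb41l3 and Ralgapa2. Angpt1 was most like Pcdhb4 (r = 0.990), Smim4 and Ssu72. Angptl6 was most like Acss1 (r = 0.992), the lens filament gene Bfsp2 and Trpv2.

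Several members lie inside or across another gene on the opposite strand. Angpt2 lies within Mcph1, Angptl1 within Ralgps2, Angptl2 within Ralgps1 and Angptl7 within Mtor, each with 0 shared exon bases. The libraries were strand-specific, but the strand setting of the counting was not given in the sources used here, so reads where exons overlap on opposite strands may not be told apart. Angptl1 shares 465 exon bases with Gm37802, Angptl6 265 with A230050P20Rik and Angpt1 737 with Gm17473. Mtor differed by -0.04, Ralgps2 by -0.01 and Gm37802 by 0.01 between the strains, and Mcph1 and Ralgps1 by 0.20 and 0.16, and none was called. A230050P20Rik differed by 0.68 (adjusted p = 0.053, limma), and its 4 BALB/cN values lay above the 4 of C57BL/6N. Gm17473 was near its lower end in all corneas, between -1.38 and -1.33.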

How the data were processed

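Paired reads of 100 bases came from stranded libraries of corneal RNA, with 4 corneas per strain. The authors removed adapters and reads of ribosomal and transfer RNA, used TopHat2 2.1.1 for alignment to a GRCm38 pseudo-genome per strain, counted reads per Ensembl gene with HTSeq 0.7.1 and deposited rlog values of DESeq2 1.30, which are log2-scale values and not counts. Columns were assigned to corneas through the sample titles, and no 2 columns were identical. Of 54532 genes, 23218 were at 0 in all corneas.

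The comparison used limma 3.58.1 in R 4.3.3 (lmFit, eBayes with a variance trend) for genes with a mean of at least 0, with Benjamini-Hochberg adjustment and calls at 0.01. On simulated data with 200 changed genes among 25402, 182 were called, and 2 unchanged genes. The simulated noise was independent between genes, whereas marker genes of the corneas moved together. These counts therefore give no error rate for the calls on the real values. Single genes were also compared with exact permutation tests (scipy 1.17.1, Python 3.11.15). Exon lengths and positions came from GENCODE annotation of GRCm38. The members and lists were chosen with earlier results of these data known. Named were all members, the called genes of each list and up to 4 with its highest mean, overlapping genes, the 3 nearest genes on each side of Angptl4, and the 3 most alike genes per member. Some genes that this rule names are not reported here. Lpl, Cdh5, Pparg, the marker genes, the other listed lipid genes and the neighbours of Tie1 were named after their values were seen.

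Alternatives were a robust fit, a fit without variance trend, a mean of at least log2(10) or no filter, quantile normalization, median centring, a block for the replicate number, an empirical null, each cornea left out, a stromal covariate, and an adjusted p of 0.05. Other covariates and leaving out several corneas were chosen after seeing the data.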

Additional observations from a re-analysis of the deposited data

Results flagged for a closer look

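Among 56 groups of 4 corneas, formed by the 9 tested members and 19 gene lists in each strain, 6 had a single cornea far from the other 3 (Dixon's ratio of gap to range above its 95% critical value). Chance gives about 1 in 20, or 2.8 of 56, if the groups are independent. They were not, since they shared the same corneas and some genes and lists moved together, so 6 cannot be weighed against 2.8. In BALB/cN, replicate 2 was low for Angptl1, at 6.25 against 7.90 for the next cornea (ratio 0.910), and for Angpt2, at 8.16 against 8.89 (ratio 0.835). The same replicate was low for the corneal endothelium list, at 12.41 against 12.87 (ratio 0.880), and for the list of trabecular meshwork and sclera, at 3.55 against 4.0 (ratio 0.848). BALB/cN replicate 3 was high for the list of regulators of Angptl4, at 10.82 against 10.75 (ratio 0.853), and for the red blood cell list, at 2.61 against 2.55 (ratio 0.862). None was found in C57BL/6N, where replicates 3 and 4 were low together.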

How the results depend on the processing

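Angptl4 stayed lower in BALB/cN in every fit, from -0.83 to -0.63, and lost its call after recalibration to an empirical null (adjusted p = 0.514) and without BALB/cN replicates 1 and 4 (0.0162). The number of genes called, 1458, became 958 with median centring, 554 with the replicate block, 2418 with the stromal covariate, 2875 with stromal and pigment covariates, 852 without the 3 corneas lowest in the stromal list, 447 without the 2 highest in the lens list, 2842 at an adjusted p of 0.05, and 953 to 1163 with 1 cornea left out. It was 0 under the empirical null, where 1730 genes had an unadjusted p under 0.05. Members called were then 0, and were 2 (Angptl4 and Tie1) with median centring, each of the 4 fits with covariates, an adjusted p of 0.05, or without BALB/cN replicate 4 (1 to 2 with 1 cornea left out). Equal replicate numbers did not pair corneas (correlations of deviations from -0.53 to 0.31), and with them as a block the adjusted p was 0.00919 for Angptl4 and 0.107 for Tie1. Of the 6 genes called in the pathway lists, Plin2 lost its call only under the empirical null, and with the block it was the only one of them still called (adjusted p = 0.00314).

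Directions turned only for members that were not called. Without the 3 corneas lowest in the stromal list, Angpt2 was at -0.11, Angptl2 at -0.08, Angptl7 at -0.05 and Angptl1 at -0.56. With the blood endothelium covariate, Tek was at -0.03, Angptl2 at -0.20 and Angptl1 at -0.64. Without the 2 corneas highest in the lens list, Tek was at -0.20 and Angptl1 at -0.37. Angptl1 was also at -0.04 with median centring, -0.03 with quantile normalization, -0.40, -0.08 and -0.35 with stromal, pigment or both covariates, and -0.39 to 0.47 with 1 cornea left out. The cause of these changes was not tested. Median centring moved the median difference of all genes from 0.008 to -0.066. Depth is unknown from rlog values, and Angpt4 was too low to compare.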
